A study of Homo sapiens with 4 samples.

Results

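The genes described here encode 10 subunits of the Integrator complex: INTS1, INTS2, INTS3, INTS4, INTS6, INTS7, INTS8, INTS9, INTS10 and INTS11. They were taken by symbol from the 60708 genes of the count table, with earlier results of these data known. All 10 passed the filter on low counts that left 23321 genes to be tested. Nascent RNA was measured by TT-seq, in which RNA made during a 20 min pulse of 4-thiouridine is fragmented, purified and sequenced. All 4 libraries came from HEK293 cells, a human embryonic kidney line, of 1 genotype, the RPB1 degron, in which auxin triggers destruction of the endogenous RPB1, the largest subunit of RNA polymerase II. The 52X WT libraries (n = 2) came from cells transiently transfected with RPB1 whose carboxyl-terminal domain (CTD) has 52 wild-type repeats, and the 52X T4A libraries (n = 2) from cells given the same construct with threonine 4 of every repeat changed to alanine. In both groups auxin was added 48 h after transfection and kept for 48 h, so no library came from untransfected or auxin-free cells. The share of cells that took up the plasmid is not given in the sources used here, and nothing says that the replicates were separate cultures, so the p-values measure only the spread between these libraries. Levels are normalized CPM, counts scaled to a common library size after TMM scaling. They are relative to the other genes of a library, so a change in labeled RNA shared by most genes would not be seen.

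Integrator is a complex of animal cells that travels with RNA polymerase II and binds its CTD. It cuts the primary transcripts of the small nuclear RNA (snRNA) genes at their 3′ ends, and it attenuates protein-coding genes by cutting nascent RNA close to the promoter and ending transcription there. The cut is made by INTS11, an endonuclease that pairs with its inactive relative INTS9 and is held by INTS4. A second activity, the phosphatase PP2A, is docked onto the complex through subunits that include INTS6 and INTS8, and it takes phosphates off the CTD and the elongation factor SPT5. INTS1, INTS2 and INTS7 belong to the body of the complex, INTS3 also works with single-stranded DNA binding proteins in the SOSS complex of DNA repair, and INTS10 belongs to a peripheral module.

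Promoter sequences were found in RefSeq (GRCh38.p14) for 7 members. The last 100 bases before the RefSeq start are shown for INTS1 and INTS11, whose libraries of 1 condition disagreed most, for INTS3, which had the lowest p-value of the 10, and for INTS6, which had the highest level per kb. They are printed 5′ to 3′ on the strand of the gene, and capitals mark each match to CCGGAAG on either strand, the core of the sites of ETS factors.
INTS1: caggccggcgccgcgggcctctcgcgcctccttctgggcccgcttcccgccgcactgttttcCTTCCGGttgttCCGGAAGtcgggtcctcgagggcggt
INTS11: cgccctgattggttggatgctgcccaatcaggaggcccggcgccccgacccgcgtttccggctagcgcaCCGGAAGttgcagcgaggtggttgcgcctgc
INTS3: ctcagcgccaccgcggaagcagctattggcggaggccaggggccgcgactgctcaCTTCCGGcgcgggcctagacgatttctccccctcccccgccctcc
INTS6: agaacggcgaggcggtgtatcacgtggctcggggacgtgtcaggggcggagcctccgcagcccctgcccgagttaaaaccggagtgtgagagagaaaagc
They lie at chr7:1504390-1504489 (minus strand), chr1:1324661-1324760 (minus strand), chr1:153727950-153728049 (plus strand) and chr13:51453037-51453136 (minus strand). The RefSeq start is not always the edge of the span in the count table: the stretch of INTS6 lies inside the counted span and that of INTS11 partly inside it. In the window from 250 bases before to 50 bases after the start, CCGGAAG was found in 4 of the 7 members (INTS1, INTS3, INTS4 and INTS11), against 10.3% of all 35116 promoter windows. The CCAAT box (CCAAT) was found in 4 of the 7, against 34.6% of all windows, and the GC box (GGGCGG) in 5 of the 7, against 45% of all. The TATA box (TATAAA) was found in none of the 7, against 11.5% of all. These matches are descriptions of letters only. The GC content of the 250 bases before the start was 76.4% for INTS11 and 74% for INTS1, against 52% for INTS2 and 62.8% to 66% for the other 4.

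The libraries held between 33188536 and 45605027 counts. The listed length of every gene equals its span, so introns were counted with exons. Among genes with 1 to 19 counts, between 81.7% and 85.9% of genes in a library had an even count, so most reads appear to have been counted with their mates and the number of sequenced fragments is smaller than the counts. 52X T4A replicate 1 stands apart from the other libraries: log2 CPM correlated at 0.979 between the T4A replicates and at 0.991 between the WT replicates, and the log2 difference of T4A replicate 1 from replicate 2 correlated with the GC content of the gene (Spearman's rho −0.46 across 23162 genes, which are not independent replicates and share the 2 libraries). The same difference between the T4A replicates correlated with gene length at a rho of 0.38. The WT replicates also differed along GC content, with a rho of 0.29 for the deviation of WT replicate 1 from the WT mean. Of the HEK293 markers KRT8, KRT18, VIM, NEFL, NEFM, PAX2 and LIN28B, all but NEFM (0 to 6 counts) were tested. The 7 summed to 409 to 435 normalized CPM in WT and 373 to 411 in T4A. The markers of other cell types PTPRC, CD3E, ALB, CDH5, COL1A1 and HBB summed to 3.36 to 4.04 and 4.89 to 4.92, with HBB at 0 in all libraries but T4A replicate 1 (2 counts), and their part in the results was not tested. The sums hide single genes: PAX2 had 80 to 96 counts, within the range of COL1A1 (62 to 102). POLR2A, which encodes RPB1, had 377312 and 384353 counts in WT replicates 1 and 2 and 251502 and 279478 in T4A replicates 1 and 2. Auxin acts on the protein and RNA from the plasmids may align to this gene, so these counts do not check the degradation. Whether the WT and T4A constructs were expressed equally was not tested.

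The 10 genes lie on 6 chromosomes of GRCh38. INTS11 (chromosome 1, from 1311585 to 1324687) is the shortest, with 13.1 kb, and INTS9 (chromosome 8, from 28767661 to 28890242) the longest, with 122.6 kb. INTS3 (chromosome 1, from 153728050 to 153774808) and INTS7 (chromosome 1, from 211940399 to 212035557) share chromosome 1 with INTS11. INTS8 (chromosome 8, from 94813311 to 94881746) and INTS10 (chromosome 8, from 19817391 to 19852083) share theirs with INTS9. INTS1 lies on chromosome 7 from 1470277 to 1504389, INTS4 on chromosome 11 from 77878720 to 77994671, INTS6 on chromosome 13 from 51354077 to 51454264 and INTS2 on chromosome 17 from 61865367 to 61928016. All 704 coding genes that other genes of their own strand cover whole were at 0, against 10.4% of the 960 that only genes of the other strand cover whole. Counting thus used strand, and reads over more than 1 gene of a strand were not assigned. Genes of the other strand cover 34.2% of INTS4, 12.5% of INTS6 and 11.4% of INTS3, and at most 3.48% of each other member, and 8 of the 10 spans had between 99.8% and 100% of their bases free of other genes of their strand, with 99.0% for INTS3 and 91.0% for INTS11. INTS4 has the pseudogene copies INTS4P1 and INTS4P2, which had 872 to 1175 and 452 to 601 counts, so reads that these copies share with INTS4 may be missing from it.

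Labeled RNA per kb of gene differed between the subunit genes by more than it differed between the conditions. The mean over the 4 libraries ran from 3.23 normalized CPM per kb for INTS6 to 0.716 for INTS8, a ratio of 4.51. With the same counts, introns included, divided by exonic length, the ratio was 27.3, with INTS7 highest and INTS11 lowest. Among the tested protein-coding genes the levels of INTS6 and INTS8 per kb of gene span lay at the 88.6th and the 52.5th percentile. Every member was thus above the median coding gene per kb of span. INTS6 had 3.08 and 3.62 normalized CPM per kb in WT replicates 1 and 2 and 3.27 and 2.96 in T4A replicates 1 and 2. INTS7 followed with 2.13 and 2.32 in WT and 2.20 and 1.96 in T4A, and INTS10 with 1.55 and 1.65 in WT and 1.39 and 1.26 in T4A. The ranges of the 4 libraries did not overlap between INTS6 and INTS7, between INTS7 and INTS10, or between INTS10 and INTS4. From INTS4 down, through INTS2, INTS11, INTS1, INTS3, INTS9 and INTS8, the range of each gene overlapped that of its neighbour, so this part of the order was not resolved. Of the endonuclease module, INTS4 had 1.13 ± 0.06 (SD, n = 2), INTS11 1.04 ± 0.10 and INTS9 0.796 ± 0.032 normalized CPM per kb in WT. The WT libraries of INTS4 and INTS11 overlapped, and those of INTS9 lay below both. Of the phosphatase module, INTS6 was highest and INTS8 lay in the unresolved lower part of the order.

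**Figure D1:**
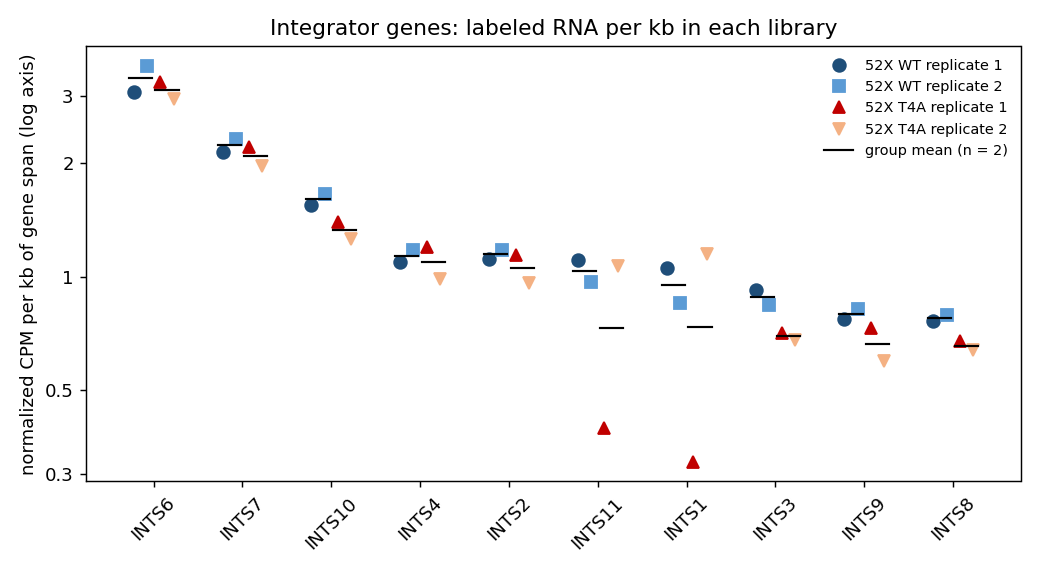
Normalized CPM per kb of gene span (log axis) of the 10 Integrator genes, ordered by their mean; each symbol is 1 library and each black line the mean of a condition (n = 2). INTS6 leads in every library, and the T4A replicate 1 symbols of INTS11 (0.398) and INTS1 (0.323) lie far below the other libraries of the same genes.

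The comparison of T4A with WT asked whether loss of threonine 4 from the CTD went with a change in labeled Integrator RNA relative to other genes. All 10 members had a log2 fold change below 0 in T4A, with a median of −0.25 and a range from −0.50 for INTS11 to −0.05 for INTS4. Since the members were chosen with earlier results of these data known, this count is a description only. Over all 23321 tested genes 50.1% were below 0 and the median was −0.00076, and over the 15329 tested protein-coding genes 56.6% were below 0 and the median was −0.04. No member passed the threshold of an adjusted p below 0.05 from edgeR with a fold change above 1.5, which 1 gene, CHST8, passed (0.00429% of those tested). At an unadjusted p below 0.05, 0 members were higher, against 7.45% of all genes and 1008 of the 15329 coding genes. At the same limit 4 members were lower (INTS3, INTS8, INTS9 and INTS10), against 8.02% of all genes and 1602 of the coding genes. That count depended on single libraries: of these 4, INTS9 and INTS10 were below 0.05 without WT replicate 1, INTS3 alone without WT replicate 2, INTS3, INTS9 and INTS10 without T4A replicate 1, and INTS3 alone without T4A replicate 2. With the replicate number as a block INTS3 alone of these was below 0.05. DESeq2 also placed 0 of the 10 past the threshold. The same 4 genes were the members with both T4A libraries below both WT libraries, which held for 24.7% of all genes, and 0 members had both above, which held for 24.8%. In these bulk samples fewer cells that make an RNA and less of it per cell cannot be told apart. An exact two-sided permutation test of 2 against 2 libraries cannot go below p = 0.333, so tests are those of the fit across all genes.

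INTS3, the SOSS-linked subunit, had the lowest p of the 10. It had 43.1 and 39.4 normalized CPM in WT replicates 1 and 2 and 33.2 and 31.8 in T4A replicates 1 and 2. The groups did not overlap, and the gap was wider than either pair of replicates. Its log2 fold change was −0.34 (standard error 0.10, 95% interval −0.58 to −0.10, adjusted p = 0.237 from edgeR). INTS10, of the peripheral module, had 53.8 and 57.4 normalized CPM in WT and 48.4 and 43.6 in T4A, again without overlap. The difference was −0.27 on the log2 scale with a standard error of 0.10 (adjusted p = 0.271).

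The endonuclease module was mixed. INTS9, the inactive partner of the endonuclease, had 94.8 and 100.3 normalized CPM in WT and 89.3 and 73.1 in T4A. There was again no overlap, but the T4A libraries were farther from each other than the higher of them was from WT. INTS9 had a log2 fold change of −0.26 with a standard error of 0.11 (adjusted p = 0.310), which was −0.41 without T4A replicate 1 and −0.14 without T4A replicate 2. INTS4, which holds the endonuclease pair, had 126 and 136 normalized CPM in WT and 139 and 114 in T4A, so that T4A replicate 1 was the highest library and T4A replicate 2 the lowest. Its log2 fold change was −0.05 (95% interval −0.31 to 0.20, adjusted p = 0.831), and it was −0.20 when T4A replicate 1 was left out and 0.06 when T4A replicate 2 was. INTS11, the endonuclease itself, had 567 and 558 counts in WT and 175 and 482 in T4A, which is 14.5, 12.7, 5.21 and 13.9 normalized CPM. T4A replicate 1 was far below the other libraries, while T4A replicate 2 lay between the WT libraries. The log2 fold change of −0.50 therefore had a standard error of 0.36 and an interval from −1.33 to 0.33 (adjusted p = 0.526).

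Of the phosphatase module, INTS8, which helps to dock PP2A, had 52.1 and 54.1 normalized CPM in WT and 46.1 and 43.7 in T4A, with no overlap and a log2 fold change of −0.24 (standard error 0.09, adjusted p = 0.287). INTS6, the other docking subunit and the member with the highest level per kb, had 308 and 363 normalized CPM in WT and 327 and 296 in T4A. Its T4A replicate 1 lay between the WT libraries, and the log2 fold change was −0.10 (95% interval −0.37 to 0.16, adjusted p = 0.681). With 1 library left out it ran from −0.23 without WT replicate 1 to −0.0040 without WT replicate 2.

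Among the scaffold subunits, INTS7 had 203 and 221 normalized CPM in WT and 209 and 187 in T4A, and INTS2 had 69.9 and 73.5 in WT and 71.5 and 60.2 in T4A. In both genes T4A replicate 1 lay between the WT libraries and T4A replicate 2 below them. The log2 fold changes were −0.10 for INTS7 (95% interval −0.33 to 0.13, adjusted p = 0.660) and −0.12 for INTS2 (95% interval −0.36 to 0.12, adjusted p = 0.593). They were −0.18 and −0.24 when T4A replicate 1 was left out, and −0.032 and −0.019 when T4A replicate 2 was. INTS1, the largest scaffold subunit, had 1403 and 1281 counts in WT and 370 and 1351 in T4A, which is 1.05, 0.852, 0.323 and 1.15 normalized CPM per kb. It was thus lowest in one T4A library and highest in the other, with a log2 fold change of −0.37, a standard error of 0.44 and an interval from −1.39 to 0.64 (adjusted p = 0.704). With the replicate number as a block it was −0.62 (adjusted p = 0.0296), past the threshold, though the numbers are not stated to pair the libraries.

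**Figure D2:**
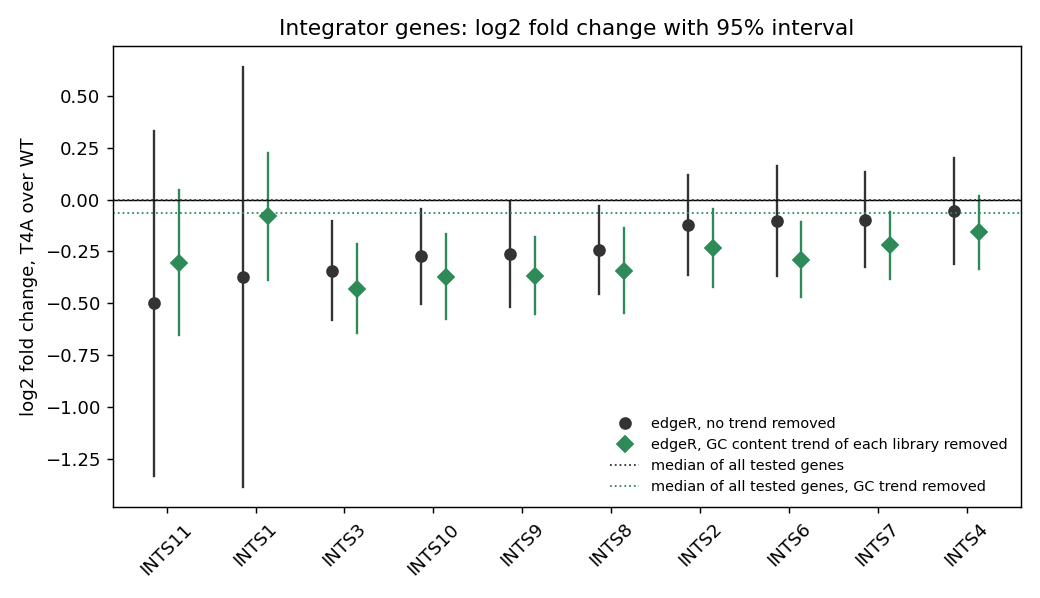
Log2 fold change of T4A over WT for the 10 Integrator genes with its 95% interval, from edgeR without (black circles) and with (green diamonds) the trend of each library on GC content removed; dotted lines are the medians of all tested genes in each fit. All points lie below 0, and the intervals of INTS1 and INTS11 shrink most between the fits.

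INTS1 and INTS11 stand apart from the other members in their base composition. The GC content over the gene was 63.5% for INTS1 and 60.4% for INTS11, against 36.1% to 48.3% for the 8 others. They are also the shortest members, with 34.1 and 13.1 kb against 34.7 to 122.6 kb. In T4A replicate 1 their log2 ratio to the WT mean was −1.56 and −1.38, while that of the 8 others lay between −0.31 and 0.08. In T4A replicate 2 it was 0.27 and 0.04, while that of the 8 others lay between −0.42 and −0.18. T4A replicate 2 held 3.55 times the normalized CPM of replicate 1 for INTS1 and 2.67 times for INTS11. The gap is beyond counting error. The 370 counts of INTS1 in T4A replicate 1 have a 95% interval from 319 to 427 and the 1351 counts in replicate 2 one from 1251 to 1457, with counts taken as pairs of reads (exact Poisson intervals, counting error only).

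The same split by GC content was seen over all tested genes. The 852 genes with a GC content from 60% to 65% had a median log2 ratio to the WT mean of −0.95 in T4A replicate 1 and 0.11 in T4A replicate 2. The 5540 genes from 35% to 40%, where INTS2, INTS6 and INTS7 lie, had medians of 0.06 and −0.05. INTS1 and INTS11 were both below the median of their GC bin in T4A replicate 1. Without T4A replicate 1 their log2 fold changes were 0.28 and 0.05, and without T4A replicate 2 they were −1.57 (adjusted p = 3.98e-19) and −1.39 (adjusted p = 2.47e-10). In that last fit both passed the threshold, as 5.61% of all genes did in the lower direction, with the lone T4A library assumed to vary like the WT libraries.

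**Figure D3:**
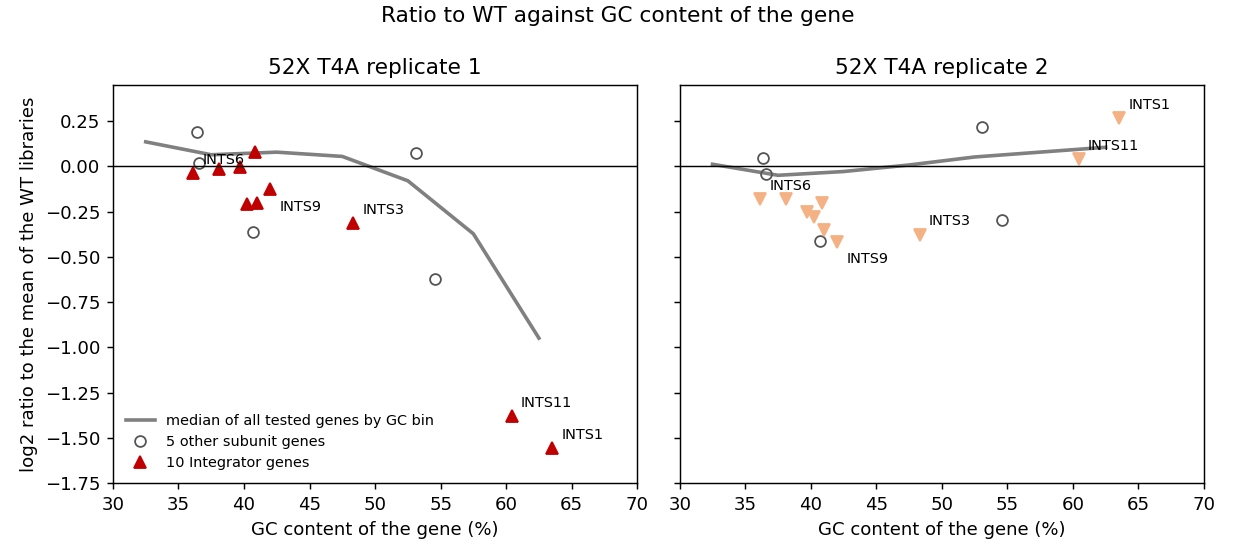
Log2 ratio of each T4A library to the mean of the WT libraries against the GC content of the gene, for the 10 Integrator genes (filled), the 5 other subunit genes (open circles) and the median of all tested genes in GC bins 5 percentage points wide (grey line). INTS1 and INTS11 lie at −1.56 and −1.38 in replicate 1 and at 0.27 and 0.04 in replicate 2, and the other 8 members lie below 0 in replicate 2.

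With the trend of each library on GC content removed, a fit chosen after the data were seen, the order of the members changed. INTS1 had a log2 fold change of −0.08 (standard error 0.14, adjusted p = 0.763) and INTS11 one of −0.30 (standard error 0.16, adjusted p = 0.248). The 8 others ran from −0.43 for INTS3 to −0.16 for INTS4. The median of all 10 was −0.30, against −0.07 for all genes and −0.11 for the tested protein-coding genes. INTS3 (−0.43, adjusted p = 0.0143), INTS9 (−0.37, adjusted p = 0.0150), INTS10 (−0.37, adjusted p = 0.0213), INTS8 (−0.34, adjusted p = 0.0318) and INTS6 (−0.29, adjusted p = 0.0389) had an adjusted p below 0.05. These are 5 of the 10, all lower, where 9.86% of all genes were lower and 1.71% higher at that limit. Each gene was tested against 0 although the medians of this fit lay below 0. The share among protein-coding genes alone was not computed at that limit. With a fold change above 1.5 asked for as well, 0 of the 10 passed, against 2.34% of all genes.

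The other 5 subunits of the complex had log2 fold changes on both sides of 0. INTS14, of the module that holds INTS10, had 65.3 and 67.2 normalized CPM in WT and 51.6 and 49.7 in T4A. It did not overlap, with a log2 fold change of −0.39 (standard error 0.09, adjusted p = 0.187), and it was −0.48 (adjusted p = 0.00500) with the GC trend removed. INTS5, of the phosphatase module, had a log2 fold change of −0.45 (standard error 0.16, adjusted p = 0.265), with another gene of its strand over all but 44.1% of its bases. INTS13 (0.12), INTS15 (0.15) and INTS12 (−0.01) had adjusted p-values of 0.571, 0.530 and 0.962. Over all 15 subunits, 13 log2 fold changes were below 0 (50.1% of all genes) and the median was −0.24. An unadjusted p below 0.05 was met by 6 on the lower side (8.02% of all genes) and by 0 on the higher (7.45%), and 0 passed the threshold.

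Genes whose products work with Integrator were read from lists. CPSF3, the endonuclease that cuts mRNA precursors and a relative of INTS11, had a log2 fold change of −0.30 (standard error 0.10, adjusted p = 0.249), and its partner CPSF2, a relative of INTS9, one of −0.21 (standard error 0.09, adjusted p = 0.329). Both had no overlap between the groups, and with the GC trend removed they were at −0.40 (adjusted p = 0.0188) and −0.31 (adjusted p = 0.0416). Of the 10 PP2A, SOSS and assembly partners 9 were tested, with a median of −0.12 and extremes of −0.30 for NABP2, a single-stranded DNA binding protein, and 0.28 for INTS6L, the paralog of INTS6. At an unadjusted p below 0.05, 0 were lower, against 8.02% of all genes, and none passed the threshold. On the higher side were 2 (INTS6L and NABP1, a relative of NABP2), against 7.45% of all genes. PPP2CA, which encodes a catalytic subunit of PP2A, was listed at 0 in all 4 libraries, and other genes of its strand cover its whole span. Of the 6 pausing factors (the NELF subunits and SPT4 and SPT5) 5 were tested, with a median of −0.20 and values from −0.35 for NELFA (adjusted p = 0.274) to 0.12 for SUPT5H (adjusted p = 0.567). The 13 factors of snRNA gene transcription and export had a median of 0.03 and ran from −0.33 for SNAPC4 to 0.17 for NCBP2, with 0 at an unadjusted p below 0.05 in either direction. With the GC trend removed NELFA was at −0.43 (adjusted p = 0.0349), the only gene of these 3 lists of partners and factors with an adjusted p below 0.05.

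RNAs that Integrator acts on were also read. The snRNA genes of RNA polymerase II were read by symbol, and 11 were tested. Most of the others were listed at 0 in all libraries. Of the 11, 9 were above 0 (11634 of all 23321 tested genes were), with a median log2 fold change of 0.33. The snRNA genes read by symbol, tested or not, summed to 103 to 166 normalized CPM in WT and 153 to 180 in T4A, so the sums overlapped. Both T4A libraries lay above both WT libraries for 4 of the 11 (24.8% of all genes) and below for 1 (24.7%). RNU1-1 had 239 and 194 counts in WT and 323 and 254 in T4A (log2 fold change 0.69, standard error 0.23, adjusted p = 0.249), and RNU5A-1 was the lowest of those with a mean of at least 50 counts (−0.04, adjusted p = 0.952). At an unadjusted p below 0.05, 3 were higher (RNU1-1 and the U1 variant genes RNVU1-15 and RNVU1-18), against 7.45% of all genes. On the lower side were 0, against 8.02% of all genes, and none passed the threshold. With the GC trend removed the median was 0.19, and the same 3 had an adjusted p below 0.05, where 1.71% of all genes were higher. RNU1-1 was then at 0.74 (adjusted p = 0.0289), past the fold limit too, as 2.34% of all genes were in either direction. These genes have near-identical copies, so their counts are uncertain. Of the 12 immediate early genes, a class that Integrator attenuates, 9 were below 0 (50.1% of all genes), with a median of −0.17. Those with an unadjusted p below 0.05 were EGR1, NR4A1 and DUSP1 on the lower side (8.02% of all genes) and ATF3 on the higher (7.45%). None passed the threshold. With the GC trend removed the median was −0.07, and the same 4 had an adjusted p below 0.05 in those directions, with none past the fold limit. At that adjusted p 9.86% of all genes were lower and 1.71% higher. ATF3 had the highest log2 fold change, 0.35 (standard error 0.11, adjusted p = 0.237). JUNB had the lowest, −0.86 (standard error 0.73, adjusted p = 0.586), with 1906 and 2488 counts in WT and 169 and 1822 in T4A. Like INTS1 and INTS11 it is rich in GC (64.9%) and low in T4A replicate 1 only. Its log2 ratio to the WT mean there was −3.38, against a median of −0.95 for genes with 60% to 65% GC. With the GC trend removed JUNB was still at −0.72 (standard error 0.32, adjusted p = 0.158).

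**Figure D4:**
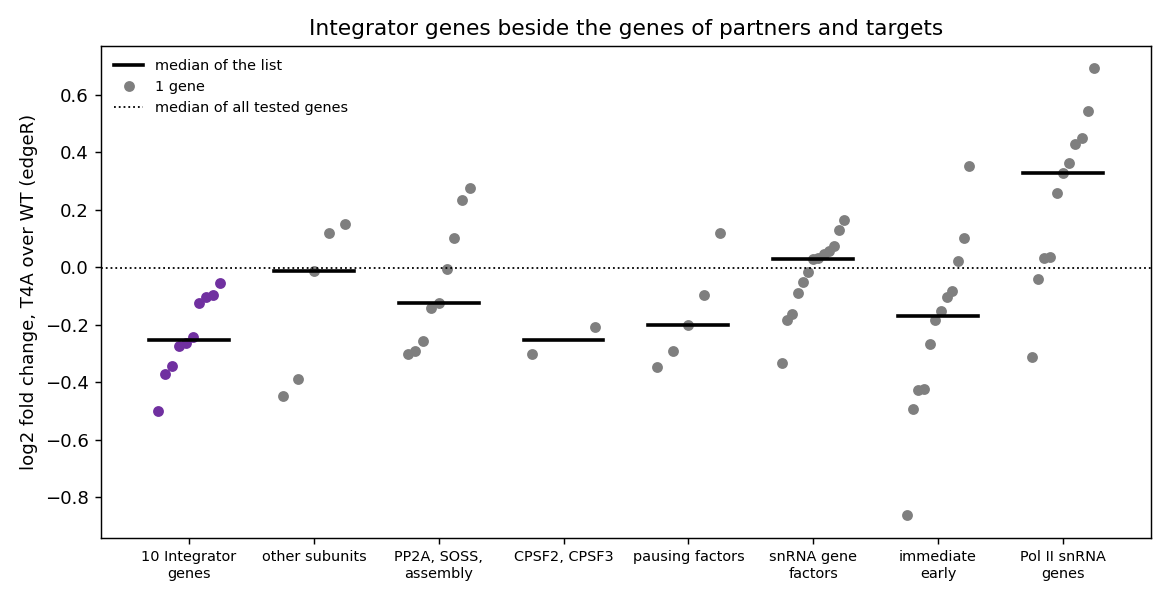
Log2 fold change of T4A over WT from edgeR for the 10 Integrator genes and 7 lists of related genes; each point is 1 tested gene, black lines are list medians and the dotted line is the median of all tested genes. The Integrator genes lie between −0.50 and −0.05, while the snRNA genes of RNA polymerase II run from −0.31 to 0.69 around a median of 0.33.

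The median profile of the members over the 4 libraries, in log2 CPM centred on each gene's mean, was 0.09 and 0.16 in WT replicates 1 and 2 and −0.03 and −0.17 in T4A replicates 1 and 2. The spread along it was narrow for 8 members, which had a root-mean-square difference from it of 0.03 (INTS8) to 0.10 (INTS4), and wide for INTS11 (0.60) and INTS1 (0.73). Among 12930 other tested protein-coding genes with a mean of at least 50 counts, those nearest to the profile over the 4 libraries were PPP3CB (0.014), TSG101 (0.015) and RABEP1 (0.016). Their log2 fold changes were all −0.22. Such profiles were common, since 2316 of the 12930 genes were nearer to it than the median member was.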

How the data were processed

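The authors deposited raw counts per gene for the 4 libraries, made with featureCounts from uniquely aligned reads per the file headers. The submitters' processing notes name GRCh38, cutadapt 4.6, STAR 2.7.11b, FastQC, Picard and deepTools 3.5.6 without roles. The strand setting and annotation release are not given in the sources used here, and the library protocol marks strand with dUTP. The paper given with the series does not describe this experiment. By symbol, 99.979% of 19039 coding genes overlapped their GRCh38 position. Symbols, gene types, exonic lengths and GC content (over the gene on GRCh37) came from GENCODE v44lift37 by stable identifier, with 58700 genes matched.

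Differential expression was tested across all genes with edgeR 4.0.16 in R 4.3.3 (TMM, default low-count filter, quasi-likelihood test, Benjamini-Hochberg over all 23321 genes), after a check on simulated data. Standard errors came from the F statistic and levels per kb from the listed length. Alternatives were DESeq2 1.42.0, other filters and scalings, the replicate number as a block, trends on length or GC content removed by loess (span 0.3), thinned libraries and each library left out. Named genes were all 15 subunits, CPSF2, CPSF3, POLR2A, genes past the threshold, the extreme genes of each list with a mean of at least 50 counts, and the 3 most alike genes. Other genes are named where a count is of 5 or fewer. The members and lists were chosen with earlier results of these data known.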

Additional observations from a re-analysis of the deposited data

How the results depend on the processing

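No member passed the adjusted p and fold limits in any fit except 1 with the replicate block and 2 without T4A replicate 2. Among all genes, 1 passed, against 96 with DESeq2, 65 with no filter, 22 with the gene length trend removed, 543 with the GC content trend removed, and 0 to 2500 with 1 library left out, where 1 condition has a lone library assumed to vary like the other. With no fold limit and the GC content trend removed, 2679 of 23162 genes passed, 2283 lower and 396 higher, and 5 members, all lower. The median of the members, −0.254, was −0.346 with the length trend removed and stayed within the spread between replicates in fits without it. With 1 library left out it ran from −0.255 to −0.179, INTS1 from −1.57 when T4A replicate 2 was left out to 0.277 when T4A replicate 1 was, INTS11 from −1.39 to 0.0476 in the same fits, and INTS4 from −0.196 to 0.0650. Of 16 alternative fits, 7 members were below 0 in all 16, and INTS1, INTS4 and INTS11 in 15. With the GC content trend removed, INTS6 (−0.290), INTS8 (−0.344), INTS9 (−0.367), INTS3 (−0.430) and INTS10 (−0.372) passed an adjusted p of 0.05. The removal of GC content trends and the division of counts by 2, which moved no call, were chosen after seeing the data.

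The replicate numbers are not stated to pair the libraries. Deviations of same-numbered libraries correlated at 0.00498 over the genes. That value cannot decide whether they were paired, since all genes share the 4 libraries and the libraries differ in their trends on GC content. With the replicate block, 433 genes passed and INTS1 had −0.615 (adjusted p = 0.0296). With the block and the length trend removed, 135 genes passed and the members' median was −0.346. With the block and the GC content trend removed, 649 genes passed. With no fold limit 4044 of 23162 genes did, 3456 lower and 588 higher, and 7 members, all lower. The 7 were INTS2 (−0.232), INTS7 (−0.220), INTS6 (−0.286), INTS8 (−0.344), INTS9 (−0.368), INTS3 (−0.430) and INTS10 (−0.371).

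Per kb of exonic length, the ratio of the highest to the lowest member was 27.3 in place of 4.51, with INTS7 highest and INTS11 lowest. Only the length changed there. The counts still included introns, so these are not levels of exons alone. The cause of the changes was not tested.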
